A study of Mus musculus with 20 samples.

Results

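The response of control T effector cells to 6 h of stimulation was measured by RNA sequencing in 11 mouse libraries, out of 20 in the series. T effector cells here are CD4+CD25- cells, flow sorted from spleen to a purity above 99% per the labels' protocols. CTL is the label for littermates that carry the floxed Pcbp2 allele (Fl-Pcbp2) without the CD4cre transgene, so the controls at both times share that allele and keep the gene. The 6 CTL_0h libraries are labelled as baseline and unstimulated. The 5 CTL_6h libraries came from sorted cells kept for 6 h in T cell medium with 3 µL per mL of beads that carry antibodies to CD3 and CD28. No CTL culture of 6 h without beads is among the libraries, so an effect of the beads and an effect of the culture cannot be told apart. The labels used here give no strain, age or number of animals behind a library, and the p-values measure the spread between these libraries. Members were all genes with a mean of at least 1 CPM (counts-per-million of the library total) over the 11 libraries, which gave 15449 of the 49315 gene IDs in the table.

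CD3 is the signalling part of the T cell antigen receptor and CD28 is its main costimulatory receptor; engaging both is the standard way to activate T cells without antigen. Receptor signalling acts within hours through calcium and the phosphatase calcineurin on NFAT factors, through MAP kinases on AP-1 and EGR factors, and through BCL10 and MALT1 on NF-kB. These factors switch on interleukin 2, its high-affinity receptor chain CD25, other cytokines and activation receptors, while a resting T cell programme of homing and quiescence genes is turned down before the first division. Myc then drives the growth phase, in which ribosomes, amino acid uptake and metabolism increase.

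Each title carries a number, here the name of a library: 4.29, 4.24, 5.13, 5.6, 9.20 and 10.28 at 0 h, and the same numbers without 5.6 at 6 h. Values given below for 5 libraries at 6 h always follow the order 4.29, 4.24, 5.13, 9.20, 10.28; for 0 h the lowest, the median and the highest of 6 are given. Levels are counts-per-million values (CPM) of the TMM-scaled library size, values after ± are SDs for CPM (n = 6 at 0 h, n = 5 at 6 h) and standard errors for log2 fold changes, and a positive fold change means higher at 6 h. A gene was called, and is said to have risen or fallen, where edgeR's quasi-likelihood test gave a Benjamini-Hochberg adjusted p under 0.05 over the 15449 genes.

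Libraries held 71.0 to 79.3 M counts (M for mega) at 0 h and 62.4 to 69.4 M at 6 h, apart from CTL_6h 4.24, which held 26.4 M. That library stood apart in other ways. Genes below the filter took 3.43% of its counts, against 0.321% to 0.624% in the other 6 h libraries and 0.159% to 0.400% at 0 h, and its median correlation with the other libraries of its group was 0.854, against 0.979 to 0.981 for the others. Along the first principal component, which carried 73.9% of the variance and separated the times, it lay farther out than the other 6 h libraries, which lay at 35.0 to 89.1. Results that rest on it are therefore given with it and without it. CTL_0h 4.24 had the lowest median correlation of its group, 0.965, and the highest share in low genes. It lay at -1.35 on the first component, with the others of its group at -111 to -48.3. The 6 h libraries stood in the same order on this component as by share in low genes. The component's share of variance is therefore not that of time alone. CTL_0h 5.6 held more counts of other lineages than the rest of its group: Cd8a reached 64.2 CPM there, where the median at 0 h was 6.80. Xist and Ddx3y matched the sex given in the labels in all 11 libraries. Pcbp2 itself did not pass the test, at 328 ± 41.1 CPM at 0 h and 349.9 ± 18.1 CPM at 6 h (log2 fold change 0.09 ± 0.10, adjusted p = 0.511).

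**Figure D1:**
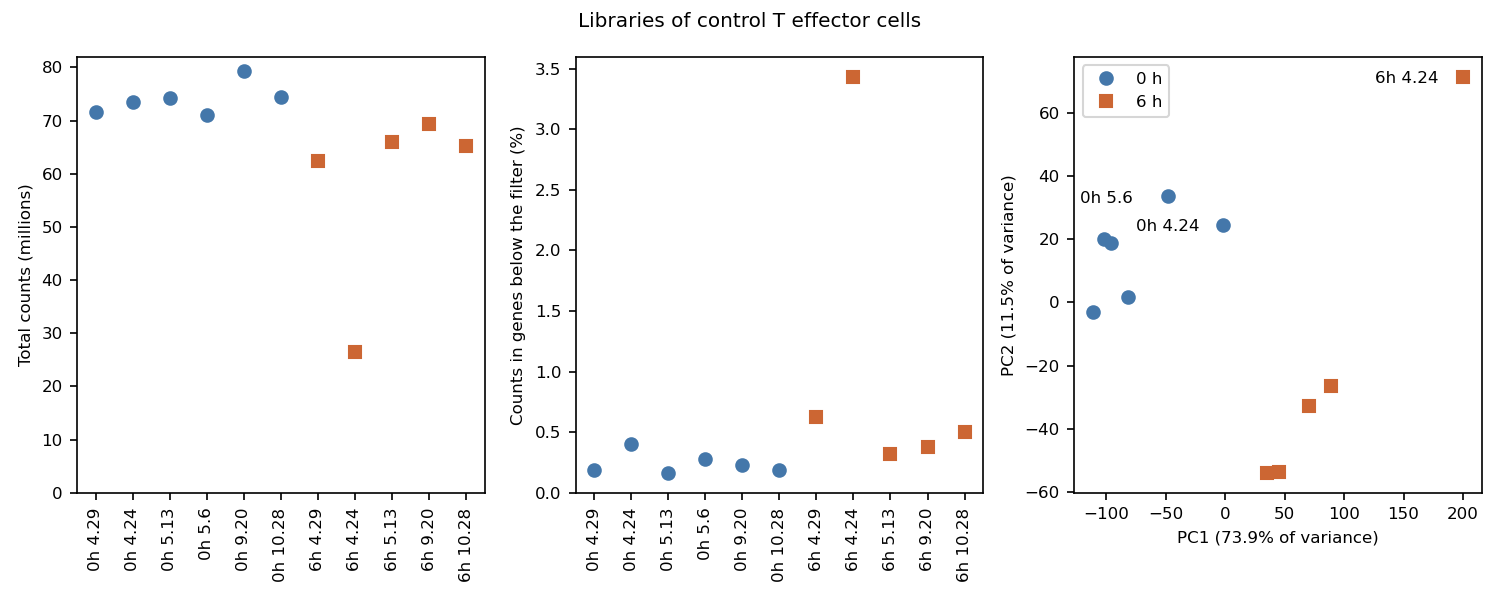
Total counts in M (left), the share of counts in genes below the filter in percent (middle) and the first and second principal component of log2 CPM (right) for the 6 libraries at 0 h (circles) and the 5 at 6 h (squares). CTL_6h 4.24 has the lowest total (26.4 M), the highest share in low genes (3.43%) and the position farthest out on the first component.

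With TMM factors about as many genes were called higher as lower at 6 h. Of the 15449 genes, 7396 were called (47.9%), 3817 of them higher at 6 h (24.7%) and 3579 lower (23.2%); the median log2 fold change over all genes was 0.01. Libraries of the 2 times did not overlap at all for 2064 genes that were higher at 6 h (13.4%) and 2455 that were lower (15.9%). Without CTL_6h 4.24, 13825 genes passed the filter and 7111 were called (51.4%), 3652 higher (26.4%) and 3459 lower (25.0%). In both fits 5425 genes were called in the same direction, and 0 genes in opposite directions. The split depended on the scaling: with total counts alone and no composition factor, the median of all genes was 0.12 and 62.2% of the called genes were higher, against 51.6% with TMM factors. The shares of 24.7% higher and 23.2% lower over all genes are the background for the list counts below.

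The number of large rises depended on CTL_6h 4.24. A change of at least 2-fold was called for 2337 genes upward (15.1%) and 1113 downward (7.2%) with that library, and for 914 upward (6.61%) and 984 downward (7.12%) without it. Of the 2337 rises, 1329 concerned genes that no longer reached the filter without the library, and 798 were again called at 2-fold or more; of the 1113 falls, 840 were. Genes with a mean of 1 to 2 CPM carried 1442 of the 2-fold rises. A gene nearly absent at 0 h reached the filter only through its level at 6 h, so the direction of its change followed from the filter. The same holds for falls of genes nearly absent at 6 h. Among protein-coding genes, those risen 2-fold only with CTL_6h 4.24 numbered 1053 and spanned a median of 66.8 kb of genome, against 23.8 kb for the 683 that rose in both fits and 25.3 kb for all 12728. The part of RNA quality in these values was not tested; the labels give integrity numbers for the whole series only.

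**Figure D2:**
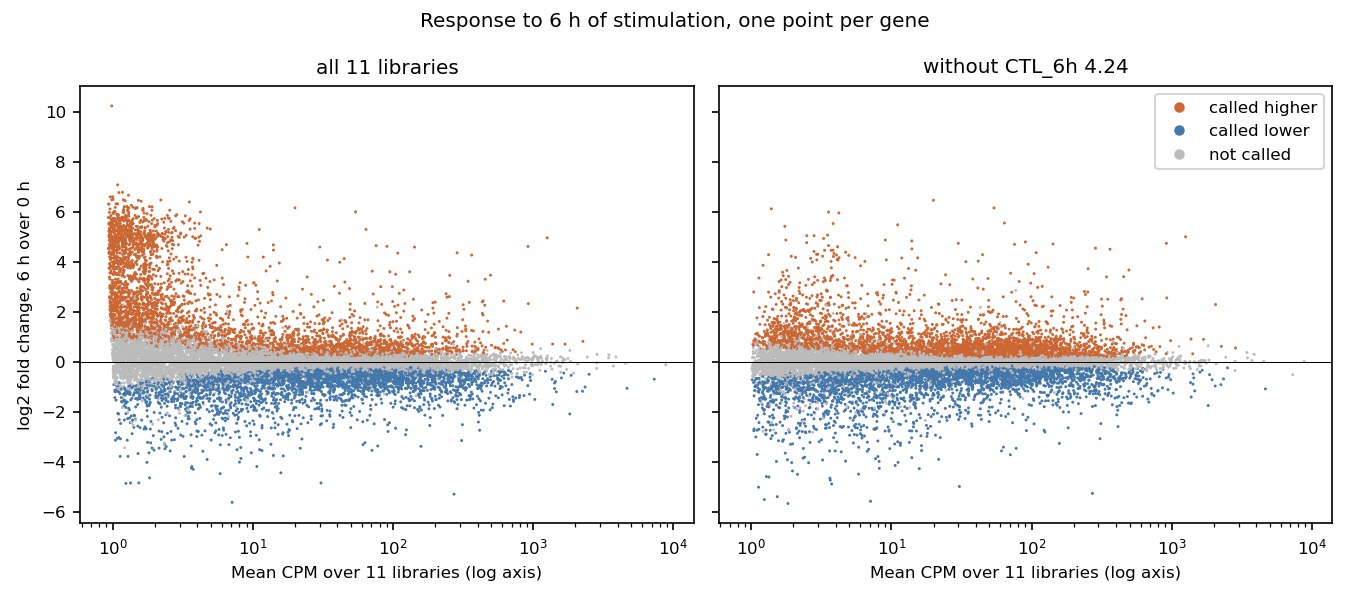
Log2 fold change between 6 h and 0 h against the mean CPM of each gene (log axis), with all 11 libraries (left, 15449 genes) and without CTL_6h 4.24 (right, 13786 of these genes), called genes in colour. The cloud of low genes with large rises on the left is thinner on the right.

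The 12 largest rises among genes with a mean log2 CPM of at least 2 fell into 2 kinds. One kind was higher in all 5 stimulated libraries than in any unstimulated one, and no single library held most of the CPM at 6 h. Il2, the growth factor cytokine of activated T cells, had 1.4, 1.78 and 2.68 CPM at 0 h and 70.0, 132, 40.9, 147 and 193 CPM at 6 h, a rise of 64.1-fold (log2 fold change 6.00 ± 0.32, adjusted p = 2.34e-07). The lowest stimulated library, 5.13, was still far above the highest unstimulated one, and 10.28 was the highest. Tnnt2, which encodes cardiac troponin T and is best known from heart muscle, went from 0.303, 0.639 and 0.891 CPM to 35.3, 28.1, 26.1, 73.5 and 52.5 CPM (log2 fold change 6.16 ± 0.36, adjusted p = 4.31e-07). It was the 1 gene under 1 CPM in every library at 0 h and over 10 CPM in every library at 6 h. Its neighbour Lad1, a gene for an anchoring filament protein of epithelia, lies 3.0 kb upstream on the same strand of chromosome 1 and moved with it, from 3.06, 3.46 and 3.8 CPM to 127, 83.6, 77.7, 216 and 179 CPM (log2 fold change 5.30 ± 0.29). Both genes were highest in 9.20 and lowest in 5.13, and counts per gene do not tell a Tnnt2 transcript from reads that run on from Lad1. Il13, a T helper type 2 cytokine, had 0.0396, 0.151 and 0.401 CPM at 0 h and 6.95, 18.4, 2.31, 5.51 and 12.3 CPM at 6 h (log2 fold change 6.00 ± 0.43, adjusted p = 1.96e-06). Here 4.24 was the highest library and 5.13 the lowest. Atf3, a stress-induced leucine zipper factor, rose from 0.727 ± 0.770 CPM at 0 h to 23.5 ± 6.04 CPM at 6 h (log2 fold change 5.29 ± 0.48). Gbp2, an interferon-gamma inducible GTPase, had 65.9, 83.3 and 117 CPM at 0 h and 3419.6, 2882, 2363, 1906 and 2739.5 CPM at 6 h, a 31.2-fold rise that had the smallest adjusted p of all (5.1e-08, shared with Dtx1 and others).

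The other kind were long genes known from neurons or embryonic tissue, and most of their CPM at 6 h, summed over libraries, came from CTL_6h 4.24. Foxp2, a forkhead transcription factor, had 0.0132, 0.0792 and 1.13 CPM at 0 h and 3.86, 34.4, 1.41, 1.42 and 2.77 CPM at 6 h (log2 fold change 5.53 ± 0.84, 4.60 without 4.24). Ptprd, a receptor tyrosine phosphatase of neurons, had 0.0143, 0.0651 and 1.44 CPM and 4.29, 43, 1.15, 1.3 and 2.83 CPM (log2 fold change 5.31 ± 0.96, 4.26 without 4.24), and its groups overlapped. Nfib, Nrxn3 and Dlgap1 had the same profile: their means at 6 h were 10.1 CPM, 8.63 CPM and 8.72 CPM, each with an SD above the mean, and their log2 fold changes went from 5.35 ± 0.76, 4.98 ± 0.91 and 4.82 ± 0.80 to 4.39, 4.10 and 4.07 without CTL_6h 4.24. Over all genes that were higher only with CTL_6h 4.24, the median level was 8.72 CPM in that library, 0.674 to 1.54 CPM in the other 6 h libraries and 0.0867 to 0.594 CPM at 0 h. The stimulated libraries stood in the same order by this level as by the share of counts in genes below the filter; the genes were chosen by that library, so these levels are a description.

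Of the 12 largest falls, Dtx1 was the first. It encodes Deltex 1, an E3 ligase regulator of Notch that has been tied to T cell anergy, and it went from 373, 501 and 594 CPM to 14.2, 12.8, 16.1, 11.8 and 9.17 CPM, 39-fold lower (log2 fold change -5.28 ± 0.19, adjusted p = 5.1e-08). Every stimulated library lay below 17 CPM and every unstimulated one above 370. Slc16a5, a monocarboxylate transporter, fell from 45.1, 55.2 and 62.5 CPM to 1.95, 3.18, 1.63, 1.38 and 1.6 CPM (log2 fold change -4.83 ± 0.21). Zfp683, which encodes the tissue-residency factor Hobit, fell from 14 ± 5.00 CPM at 0 h to 0.874 ± 0.708 CPM at 6 h (log2 fold change -4.00 ± 0.32), Eya2 from 24.1 ± 2.96 CPM at 0 h to 1.82 ± 0.616 CPM at 6 h (log2 fold change -3.74 ± 0.21) and Adamts14, a procollagen peptidase, from 16.7 ± 6.67 CPM at 0 h to 1.42 ± 1.11 CPM at 6 h (log2 fold change -3.63 ± 0.37). Hap1 fell by 3.90 ± 0.45 on the log2 scale. The remaining 6, Mmp9, Itgax, Lyz2, Plbd1, Pld4 and Alox5ap, are genes known from myeloid, dendritic or B cells and are described with the marker lists below. The 1 gene over 10 CPM in every library at 0 h and under 1 CPM in every library at 6 h was Gm11695, a gene model without a known product (12.8 ± 1.57 CPM at 0 h and 0.265 ± 0.109 CPM at 6 h).

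The 250 bases before the RefSeq start (GRCm38.p6), less any that lie inside the GENCODE gene model, are shown for the largest rises and falls for which the reference table holds a promoter outside the gene model; they let a reader see which factor motifs stand near these starts. Sequences run 5′ to 3′ on the gene's strand, and capitals mark matches, on either strand, to the 10 motifs searched, which were GGAAA (NFAT core), GGG and CC 5 bases apart (NF-kB), TGA and TCA 1 base apart (AP-1), TGACGTCA (cAMP response), GAAA repeated 2 bases apart (interferon-stimulated), TTCNNNGAA (gamma-activated), CACGTG (E-box), GCGNGGGCG (EGR), AAAGGTCA (NR4A) and a TATA box, TATAAA. N is any base. Il2 and Il13 are the cytokine genes and Tnnt2 the other gene among the 3 largest rises; Itgax and Lyz2 are myeloid genes among the largest falls. The Dtx1 window lies inside the gene model and is not shown.
Il2 (chr3:37125960-37126204, minus strand): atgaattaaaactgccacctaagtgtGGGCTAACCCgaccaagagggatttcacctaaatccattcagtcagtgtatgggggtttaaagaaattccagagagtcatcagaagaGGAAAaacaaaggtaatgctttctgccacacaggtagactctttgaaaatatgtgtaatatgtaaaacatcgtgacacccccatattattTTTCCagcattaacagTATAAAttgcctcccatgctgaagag
Il13 (chr11:53634703-53634952, minus strand): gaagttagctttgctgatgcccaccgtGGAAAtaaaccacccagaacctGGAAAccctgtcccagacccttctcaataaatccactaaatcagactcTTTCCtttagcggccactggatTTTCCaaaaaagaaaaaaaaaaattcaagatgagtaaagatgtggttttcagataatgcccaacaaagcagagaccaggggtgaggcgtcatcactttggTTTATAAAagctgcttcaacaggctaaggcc
Tnnt2 (chr1:135836084-135836333, plus strand): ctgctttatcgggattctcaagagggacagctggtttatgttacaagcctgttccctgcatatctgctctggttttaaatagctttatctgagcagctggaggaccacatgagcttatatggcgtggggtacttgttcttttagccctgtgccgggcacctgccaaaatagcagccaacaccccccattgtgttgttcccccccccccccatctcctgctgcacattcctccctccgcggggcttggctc
Itgax (chr7:128129300-128129546, plus strand): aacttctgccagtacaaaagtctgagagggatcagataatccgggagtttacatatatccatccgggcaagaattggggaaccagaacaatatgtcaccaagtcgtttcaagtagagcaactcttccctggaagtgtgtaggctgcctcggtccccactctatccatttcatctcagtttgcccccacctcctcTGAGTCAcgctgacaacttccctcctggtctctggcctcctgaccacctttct
Lyz2 (chr10:117282322-117282522, minus strand): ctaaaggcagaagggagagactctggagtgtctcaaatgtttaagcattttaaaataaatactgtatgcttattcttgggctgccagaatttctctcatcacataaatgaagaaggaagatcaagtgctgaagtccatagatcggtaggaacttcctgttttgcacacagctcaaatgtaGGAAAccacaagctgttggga
In Il2 the NF-kB letters begin 224 bases before the RefSeq start, NFAT cores stand at 137 and 47 and the TATA letters at 31. Il13 has 4 NFAT cores, at 223, 201, 153 and 131, with TATA letters at 31 and, overlapping them, at 29. In the Itgax window the capitals are an AP-1 match at 56 and in Lyz2 an NFAT core at 70, and the Tnnt2 window held none of the 10. The NFAT core is short and stood in 55.6% of all 27025 promoters of the table over their 250 upstream bases; NF-kB letters stood in 45.4%, TATA in 13% and AP-1 in 6.87%. Over the 564 genes that rose 2-fold in both fits and have a promoter in the table, the shares were 53% for NFAT, 61.2% for NF-kB, 11.7% for TATA and 6.56% for AP-1, beside 54.3%, 60.4%, 6.68% and 4.16% over all 10683 genes tested with a promoter. Over the 549 genes that fell 2-fold in both fits the shares were 55.6% for NFAT, 58.8% for NF-kB, 8.2% for TATA and 6.38% for AP-1. The AP-1 share was thus similar in rising and falling genes. The cAMP response letters TGACGTCA stood in 3.90% of the promoters of rising genes, 0.729% of those of falling genes and 2.58% of all tested. These shares are descriptions of letters, with no test.

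Immediate early transcription factors were mostly higher at 6 h. Of 13 NR4A, EGR and related genes, 8 rose, beside 24.7% of all genes, and 1 fell; their median log2 fold change was 1.57 (1.32 without CTL_6h 4.24). The NR4A nuclear receptors are direct targets of antigen receptor signalling. Nr4a3 had 22.2, 28.1 and 34.4 CPM at 0 h and 616, 435, 431, 824 and 669.8 CPM at 6 h (log2 fold change 4.36 ± 0.20, adjusted p = 7.98e-08), with no overlap. Nr4a2 rose by 3.99 ± 0.16 and Nr4a1 by 3.47 ± 0.26 on the log2 scale, and Egr2, which restrains T cell activation, by 1.68 ± 0.14. Srf, the serum response factor that acts upstream of EGR genes, was the member that fell, from 147 ± 16.6 CPM at 0 h to 96 ± 23.7 CPM at 6 h. Of 16 AP-1 and related leucine zipper factors, 9 rose and 2 fell. Fosl2, a FOS family member, had 15.8, 20.8 and 24.4 CPM and 329, 175, 319, 279.6 and 216 CPM (log2 fold change 3.60 ± 0.14, adjusted p = 5.1e-08). Maff rose by 2.77 ± 0.15 and Mafg by 1.05 ± 0.12. Maf, the factor of interleukin 4 and follicular helper T cells, fell from 202 ± 49.3 CPM at 0 h to 69.9 ± 26 CPM at 6 h (log2 fold change -1.55 ± 0.26), and Batf3, a factor of dendritic cells and T cells, fell from 1.82 ± 1.63 CPM at 0 h to 0.242 ± 0.245 CPM at 6 h (log2 fold change -3.02 ± 0.85, -3.70 without CTL_6h 4.24).

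NF-kB genes moved in 1 direction. Of 20 factors, inhibitors and regulators, 13 rose and 0 fell (16 rose without CTL_6h 4.24). Nfkbid, an inhibitor-like nuclear cofactor, rose from 74.3 ± 14.5 CPM at 0 h to 444 ± 110.4 CPM at 6 h (log2 fold change 2.59 ± 0.20). Relb, a partner of the alternative pathway, rose by 1.44 ± 0.09, the inhibitor Nfkbib by 1.41 ± 0.11, and the survival gene Birc3 by 1.41 ± 0.10. Among the interferon regulatory factors, 4 of 9 rose and 2 fell. Irf4, which scales with antigen receptor signal strength and drives effector differentiation, had 32.9, 35.6 and 48.4 CPM at 0 h and 767, 442, 594, 1074 and 888 CPM at 6 h, 19.3-fold higher (log2 fold change 4.27 ± 0.22, adjusted p = 2.05e-07). CTL_6h 4.24 was the lowest stimulated library and 9.20 the highest. Irf1 rose by 1.32 ± 0.11, Irf8 by 1.83 ± 0.37 and Irf2 by 0.41 ± 0.09, the call of Irf2 being lost with edgeR's filterByExpr (adjusted p = 0.0658) and with no filter on low counts (0.812). Irf5 fell by 0.74 ± 0.22, a call lost without CTL_6h 10.28 (adjusted p = 0.0527). Irf3 fell by 0.33 ± 0.10, a call lost without CTL_6h 4.24 (adjusted p = 0.0668), CTL_6h 9.20 (0.051) or CTL_0h 4.29 (0.055), and with total-count scaling (0.0818).

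Myc, a transcription factor that drives growth, had 59.5, 67.1 and 87.9 CPM at 0 h and 312, 322, 188, 527 and 437 CPM at 6 h (log2 fold change 2.39 ± 0.22, adjusted p = 1.24e-05); 5.13 was the lowest stimulated library. In its network of 11 tested genes, 3 rose and 3 fell, each 27.3%, near the shares of all genes. Mxd1, a Max partner that represses Myc targets, rose by 1.90 ± 0.13, while Mxd4, of the same family, fell by 1.19 ± 0.11 and Mlx by 0.74 ± 0.08. Lineage and fate factors were split, with 6 of 24 higher, about the 24.7% of all genes, and 9 lower, beside 23.2%. Bhlhe40, a regulator of cytokine production, rose from 36.9 ± 7.11 CPM at 0 h to 147 ± 22.2 CPM at 6 h (log2 fold change 1.96 ± 0.13) and Ikzf4, which encodes Eos, rose by 1.59 ± 0.15. Zbtb7b, which encodes ThPOK and fixes the CD4 lineage, had 251, 289 and 320.5 CPM at 0 h and 72, 39.3, 80.8, 59.4 and 63 CPM at 6 h (log2 fold change -2.22 ± 0.15, adjusted p = 1.18e-06). All 5 stimulated libraries lay far below the unstimulated ones, 4.24 lowest. Tox2, a factor of follicular helper cells, fell by 2.13 ± 0.16.

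**Figure D3:**
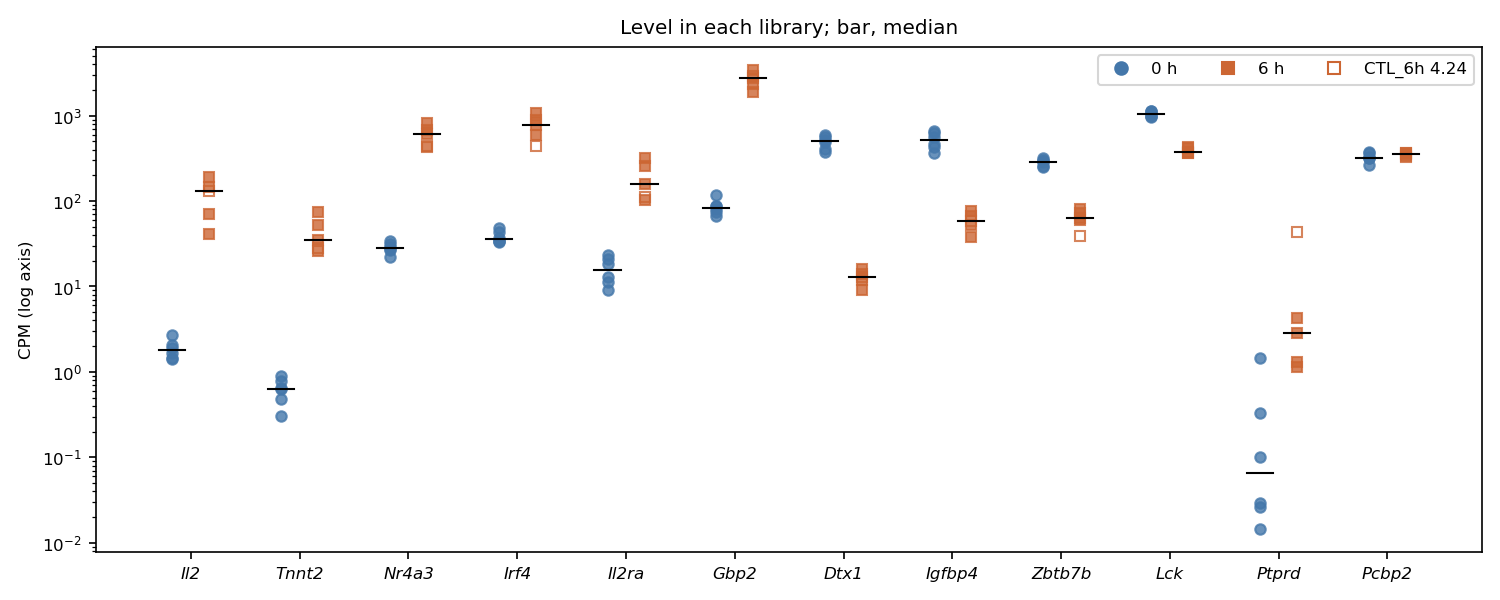
CPM in each library (log axis) for 12 genes at 0 h (6 libraries, circles) and 6 h (5 libraries, squares; CTL_6h 4.24 open), with a bar at each median. Il2, Tnnt2, Nr4a3, Irf4, Il2ra and Gbp2 are higher and Dtx1, Igfbp4, Zbtb7b and Lck lower in every stimulated library, while Ptprd is highest in CTL_6h 4.24 and Pcbp2 overlaps.

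The interleukin 2 system rose around its ligand. Of 13 genes, 8 rose and 3 fell. Il2ra, which encodes CD25, had 9.14, 15.7 and 23.1 CPM at 0 h and 158, 111, 103, 317 and 256 CPM at 6 h (log2 fold change 3.60 ± 0.36, adjusted p = 2.06e-05). Sorting had removed CD25+ cells, and every unstimulated library stayed below 24 CPM. Cish, a STAT5 target that damps the receptor, had 23.5, 33.1 and 41 CPM and 203, 138, 146, 208 and 197 CPM (log2 fold change 2.41 ± 0.17). Stat5a, the transducer, rose by 1.62 ± 0.12 and Socs1, a feedback inhibitor, by 2.34 ± 0.20. The receptor kinases went the other way: Jak3 fell by 0.99 ± 0.23, and Jak1 by 0.53 ± 0.15 with overlapping groups.

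Of 24 effector cytokines, 19 were tested, 12 rose and 2 fell (10 and 4 of 17 without CTL_6h 4.24); the median log2 fold change was 2.26, or 1.82 without CTL_6h 4.24. Tnf had 19.7, 22.3 and 32.5 CPM at 0 h and 153, 189, 91.3, 254 and 255 CPM at 6 h (log2 fold change 3.01 ± 0.24, adjusted p = 3.54e-06). Ifng, the type 1 cytokine, had 5.7, 7.11 and 12 CPM and 40.2, 50.5, 22.5, 30.4 and 46.5 CPM (log2 fold change 2.29 ± 0.20, adjusted p = 7.44e-06). In both genes 5.13 was the lowest stimulated library, and no stimulated library reached down to the unstimulated range. Lif, an interleukin 6 family cytokine, rose from 2.6 ± 0.443 CPM at 0 h to 62.9 ± 16.1 CPM at 6 h (log2 fold change 4.59 ± 0.20). Type 2 cytokine genes lay next to each other and moved together: Kif3a, Il4 and Il13 form a run of 3 neighbours called 2-fold higher on chromosome 11 (53567379 to 53634702), and Il4 rose from 1.97 ± 0.5 CPM at 0 h to 24.9 ± 16.2 CPM at 6 h. Runs, here and below, join protein-coding genes that are consecutive among those tested. Untested or non-coding genes can lie between their members. Il3, a growth factor for blood cell precursors that was picked here after its values were seen, had 0 counts in all 6 libraries at 0 h and 0.330 to 3.95 CPM at 6 h, at least 49.8-fold higher than a floor of 3 counts per library. Il3 reached the filter through the stimulated libraries alone, and so did Il13, so the rise of such members is not independent of the filter. Osm and Il16 were the members that fell, from 29.3 ± 3.1 CPM at 0 h to 15.3 ± 2.17 CPM at 6 h and from 293 ± 30 CPM at 0 h to 187 ± 24.1 CPM at 6 h.

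Chemokine genes for attracting other leukocytes rose. Of 13 listed, 10 were tested and 3 lay under the filter. Among the 10, 8 rose, with a median log2 fold change of 3.17, and 1 fell. Ccl1, at a mean of 0.202 CPM at 0 h and 8.20 CPM at 6 h, reached the filter through 6 h, so its rise is not independent of the filter. Cxcl10, an interferon-gamma induced ligand of CXCR3, had 2.57, 3.88 and 6.04 CPM at 0 h and 74.3, 92, 67.1, 51.9 and 63.6 CPM at 6 h (log2 fold change 4.07 ± 0.23, adjusted p = 3.69e-07), with the order of the stimulated libraries unlike that of Il2: 4.24 was highest and 9.20 lowest. Ccl4 rose by 3.82 ± 0.31, Ccl1 by 5.34 ± 0.46 and Xcl1 by 2.81 ± 0.31 on the log2 scale. Ccl5, a chemokine of memory and cytotoxic cells, fell from 65 ± 22.2 CPM at 0 h to 27.3 ± 14.8 CPM at 6 h, with overlapping groups. The receptors went mostly the other way: of 17 chemokine receptors, 2 rose and 8 fell. Cxcr5, which leads follicular helper T cells to B cells, fell by 1.96 ± 0.22, and Ccr4 by 0.81 ± 0.17; Ccr8 rose by 2.44 ± 0.31 and Xcr1 by 1.75 ± 0.39, the latter at 0.773 ± 0.339 CPM at 0 h and 2.48 ± 2.22 CPM at 6 h.

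Activation receptors of the TNF family were higher more often than lower, 8 against 4 of 16. Tnfrsf9, which encodes 4-1BB, rose from 20.3 ± 4.2 CPM at 0 h to 134 ± 10.3 CPM at 6 h (log2 fold change 2.72 ± 0.15), Tnfrsf4 (OX40) by 2.28 ± 0.17, Tnfrsf18 (GITR) by 1.61 ± 0.12 and Tnfrsf26 by 1.34 ± 0.10. Tnfrsf4 and Tnfrsf18 are neighbours on chromosome 4 and, with Ttll10, made up a run of 3 called 2-fold higher. Cd27, a receptor of resting cells, fell by 0.91 ± 0.10 and Tnfrsf1a by 0.93 ± 0.09. Of 10 tested ligands of the family, 6 rose and 1 fell: Tnfsf8 rose by 1.21 ± 0.15, Tnfsf11 (RANKL) by 1.21 ± 0.19 and Tnfsf4 (OX40 ligand) by 2.32 ± 0.30, and Tnfsf10 (TRAIL) fell by 0.92 ± 0.13. In the list of immunoglobulin family receptors more members were lower than higher, 13 against 8 of 28. Cd274, which encodes the checkpoint ligand PD-L1, had 72.3, 75.4 and 78.4 CPM at 0 h and 489.6, 346, 451, 511 and 522 CPM at 6 h (log2 fold change 2.61 ± 0.11, adjusted p = 5.1e-08), the unstimulated libraries lying close together. Slamf1 rose by 1.77 ± 0.20, while Cd200r1 fell by 1.51 ± 0.12 and Cd48 by 0.90 ± 0.09. The 13 also count Laptm5, a negative regulator of the antigen receptor that is not itself an immunoglobulin family receptor. Laptm5 fell from 1278 ± 158 CPM at 0 h to 535 ± 112 CPM at 6 h. Of 25 other cytokine receptors, 6 rose and 13 fell (5 and 9 of 24 without CTL_6h 4.24). Ifngr1, the ligand-binding chain for interferon gamma, had 107, 122 and 131 CPM and 696, 539, 763, 532 and 602 CPM (log2 fold change 2.38 ± 0.12). It closes a run of 4 tested genes on chromosome 10 with Arfgef3, Perp and Tnfaip3 that were all called 2-fold higher. The run spans 1028.4 kb. Il4ra rose by 1.63 ± 0.17, Il9r fell by 2.89 ± 0.19 and Il6ra by 1.03 ± 0.11.

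Interferon-gamma inducible GTPases, which guard cells against intracellular microbes, rose as a block. All but 1 of 18 rose (17; 18 of 18 without CTL_6h 4.24), 0 fell, and the median log2 fold change was 2.35. Their summed level was 1867 to 2194 CPM at 0 h and 9666 to 13620 CPM at 6 h. Gbp2 has been given above. Gbp11 rose by 4.62 ± 0.17, Iigp1 by 3.23 ± 0.15, Gbp7 by 2.44 ± 0.10 and Igtp from 204 ± 25.4 CPM at 0 h to 1109.7 ± 153 CPM at 6 h (log2 fold change 2.43 ± 0.12). Gbp8, Gbp9, Gbp4, Gbp10 and Gbp6 form a run on chromosome 5 (105014150 to 105293698), and Gbp5, Gbp7 and Gbp3 another on chromosome 3 (142493978 to 142573209), all called 2-fold higher. Genes this similar can share reads, so single values in these clusters are uncertain. Antiviral genes of the type I interferon response were split: 10 of 30 rose (33.3%, beside 24.7% of all genes) and 11 fell (36.7%, beside 23.2%). The lead changed sides with total-count scaling (10 and 9). Samhd1, a dNTP hydrolase that restricts retroviruses, had 731, 807 and 824 CPM and 4142, 2986, 3924, 3155 and 3637 CPM (log2 fold change 2.15 ± 0.12, adjusted p = 2.33e-07). Mx1, an antiviral GTPase, had 15.9, 22.7 and 29.7 CPM and 1.39, 2.84, 2.47, 1.66 and 2.86 CPM (log2 fold change -3.29 ± 0.19, adjusted p = 3.69e-07). Oasl2 rose by 1.85 ± 0.11, while Mx2 fell by 2.47 ± 0.22.

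Genes of negative feedback on MAP kinase signalling were mostly higher. Of 20 MAP kinase phosphatases, Sprouty proteins and relatives, 13 rose and 4 fell (11 and 2 of 19 without CTL_6h 4.24). Dusp5, which inactivates nuclear ERK, rose from 44.6 ± 6.87 CPM at 0 h to 253 ± 55.7 CPM at 6 h (log2 fold change 2.51 ± 0.17), Dusp10 by 1.47 ± 0.12 and Spry1 by 2.75 ± 0.30. Dusp7 fell by 0.95 ± 0.09 and Rasal3, a Ras GTPase activating protein of T cells, fell from 1106 ± 103 CPM at 0 h to 424 ± 110.2 CPM at 6 h. Regulators of mRNA decay were split, 5 higher and 6 lower of 26, with the lead reversed without CTL_6h 4.24 (8 and 5 of 25). With all libraries their shares, 19.2% higher and 23.1% lower, lay near the 24.7% and 23.2% of all genes. Zc3h12a, which encodes Regnase-1, a nuclease for cytokine mRNAs, rose by 0.95 ± 0.11, N4bp1 by 0.84 ± 0.12 and Zc3h12d by 0.70 ± 0.13. Elavl2 was tested only with CTL_6h 4.24. The TGF-beta list was balanced too, 5 higher (29.4%) and 6 lower (35.3%) of 17 (8 and 5 without CTL_6h 4.24). The repressor Tgif1 rose from 26.3 ± 2.66 CPM at 0 h to 139 ± 13.9 CPM at 6 h (log2 fold change 2.40 ± 0.10). Pmepa1 rose by 1.76 ± 0.16 and Lrrc32, which encodes the TGF-beta docking protein GARP, by 2.21 ± 0.28, while the co-receptor Tgfbr3 fell by 1.90 ± 0.12.

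The machinery that receives the antigen signal was lower. Of 44 genes of the receptor complex and its proximal signalling, 29 fell, beside 23.2% of all genes, and 4 rose (27 and 7 without CTL_6h 4.24); the median log2 fold change was -0.61 (-0.46 without CTL_6h 4.24). Lck, the kinase that starts the signal, had 968, 1037 and 1145 CPM at 0 h and 416, 366, 425, 373 and 366 CPM at 6 h (log2 fold change -1.44 ± 0.10, adjusted p = 1.15e-06). The stimulated libraries lay within a narrow band well under the lowest unstimulated one. The adaptor Lat fell by 1.35 ± 0.09, Tespa1 by 1.65 ± 0.12 and the phosphatase Ptpn6 (SHP-1) by 1.56 ± 0.12. The members that rose were Cblb, a ubiquitin ligase that restrains activation (1.37 ± 0.12), the adaptor Sh2d2a (1.24 ± 0.11), Bcl10 and Cd247. The call of Cd247 (log2 fold change 0.34 ± 0.12) was lost in the fit with a replicate block (adjusted p = 0.0971) and without any 1 of 6 libraries (CTL_0h 4.24, 5.6, 9.20 or 10.28, CTL_6h 4.29 or 5.13; 0.0582 to 0.0834). Of the 12 T cell markers, 11 fell and 0 rose. Cd4 had 848, 1125 and 1234 CPM and 481, 287, 686, 439 and 374 CPM (log2 fold change -1.34 ± 0.16, adjusted p = 7.81e-05), 4.24 being the lowest and 5.13 the highest at 6 h. Thy1 fell by 1.68 ± 0.13 and Cd3g by 1.04 ± 0.14. The summed level of the 12 markers was 6487 to 7922 CPM at 0 h and 3402 to 4766 CPM at 6 h. Segments of the receptor genes were lower as well: 61 of 75 annotated variable and 43 of 49 joining segments fell and 0 rose. In bulk samples fewer cells of a type and less RNA per cell cannot be told apart, and levels here are relative to the rest of the library.

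Genes of the resting state were lower more often than higher, 13 against 6 of 34. Igfbp4, an insulin-like growth factor binding protein that marks naive T cells, had 361, 516 and 653 CPM at 0 h and 76.5, 59, 52.8, 38 and 67 CPM at 6 h (log2 fold change -3.14 ± 0.22, adjusted p = 1.94e-06). Ramp1, a neuropeptide receptor subunit, fell by 2.66 ± 0.23, Foxo1, which maintains quiescence and homing, from 403 ± 37.6 CPM at 0 h to 169.6 ± 27 CPM at 6 h (log2 fold change -1.25 ± 0.13), and Elf4 by 1.42 ± 0.17. Klf6 and the chromatin organiser Satb1 rose, by 0.99 ± 0.12 and 0.71 ± 0.10. In the Notch pathway 9 of 30 tested genes fell and 4 rose, the falls close to the 23.2% and the rises under the 24.7% of all genes; besides Dtx1, Maml2 fell by 0.88 ± 0.08 and Rfng by 1.22 ± 0.13, and Dtx3l rose by 1.11 ± 0.13. Of 19 integrins and adhesion genes, 10 fell and 6 rose. Itgb2, the beta chain of LFA-1, had 539.9, 647 and 717 CPM and 174, 122, 188, 196 and 176 CPM (log2 fold change -1.92 ± 0.12), and Itgb7, the gut homing chain, fell by 1.76 ± 0.15. Cd69, which holds activated cells in tissue by blocking S1PR1, had 58.6, 65.8 and 82.8 CPM and 377, 493, 209, 604 and 534 CPM (log2 fold change 2.73 ± 0.22, adjusted p = 4.66e-06), and Icam1 rose by 1.37 ± 0.15. Vimentin, S100 proteins, annexins and galectins, which mark memory and effector cells, were lower in 11 of 20 and higher in 2. Vim fell from 348 ± 77.7 CPM at 0 h to 78.8 ± 14 CPM at 6 h (log2 fold change -2.14 ± 0.18), S100a4 by 2.35 ± 0.32, Anxa6 by 1.84 ± 0.16 and Lgals9 by 0.71 ± 0.11; Anxa4 and Anxa7 rose, by 1.21 ± 0.20 and 0.49 ± 0.11.

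The 10 genes with the most counts among those called at least 2-fold lower were Actb, Arhgap45, Macf1, Arhgef1, Flna, Coro1a, Dgka, Chd3, Laptm5 and Kif21b. Actb, beta-actin, fell from 6101 ± 779 CPM at 0 h to 2943 ± 442 CPM at 6 h (log2 fold change -1.05 ± 0.15), Coro1a, an actin regulator of lymphocytes, by 1.19 ± 0.12, Flna, filamin A, by 1.70 ± 0.22 and Macf1, a linker of actin and microtubules, from 2774 ± 401 CPM at 0 h to 679 ± 255 CPM at 6 h. Dgka, which removes the second messenger diacylglycerol, fell by 1.06 ± 0.14 and the chromatin remodeller Chd3 by 1.5 ± 0.17. Among the corresponding 10 genes that rose were Samhd1, Gbp2, Gbp4, Ncl, Igtp, Nr4a1, Nfkb1, Odc1 and Irf1. Of the Gimap GTPases, which support lymphocyte survival, 6 of 8 fell and 1 rose (4 and 1 without CTL_6h 4.24); Gimap7 fell by 0.95 ± 0.20 and Gimap9 rose by 0.69 ± 0.12.

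Genes that build ribosomes rose, and genes of the ribosome itself did not pass the test. Of 45 ribosome biogenesis genes, 33 rose and 1 fell, with 41 and 1 without CTL_6h 4.24. Ncl, the nucleolar protein nucleolin, had 438, 522 and 581 CPM at 0 h and 1209, 831, 901, 1569.6 and 1381 CPM at 6 h (log2 fold change 1.19 ± 0.17, adjusted p = 0.000226), with 4.24 and 5.13 lowest and 9.20 highest. Nop16 rose by 1.59 ± 0.18, Noc4l by 1.00 ± 0.13 and Nop58 by 1.18 ± 0.16, and Ubtf, the RNA polymerase I factor, fell by 0.83 ± 0.15. Of 78 cytosolic ribosomal protein genes 0 passed edgeR's test; without adjustment 1 higher and 2 lower had p under 0.05, and DESeq2 called 1 higher and 0 lower. Over the 5 numbers present at both times their median log2 difference was 0.80 in 4.24 and -0.43 to 0.16 in the others. Rplp0 was at 2282 ± 377 CPM at 0 h and 2611 ± 282 CPM at 6 h. Of 47 translation factors, 23 rose and 1 fell: Eif5a rose from 305 ± 34.4 CPM at 0 h to 691 ± 171 CPM at 6 h, Eif1a by 1.15 ± 0.14, Eif6 by 0.78 ± 0.10 and Eif3g by 0.73 ± 0.11, and Eif4a2 fell by 0.50 ± 0.13. Aminoacyl-tRNA synthetases were higher in 8 of 20 (16 without CTL_6h 4.24, 5 in the replicate block) and lower in 1; with no filter on low counts 1 was higher and 4 lower. Wars, the tryptophan enzyme and an interferon-gamma target, had 52.5, 64 and 78.3 CPM and 326, 202, 265, 258 and 323 CPM (log2 fold change 2.08 ± 0.14, adjusted p = 1.08e-06), beside 0.71 ± 0.13 for Rars and 0.69 ± 0.14 for Kars.

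**Figure D4:**
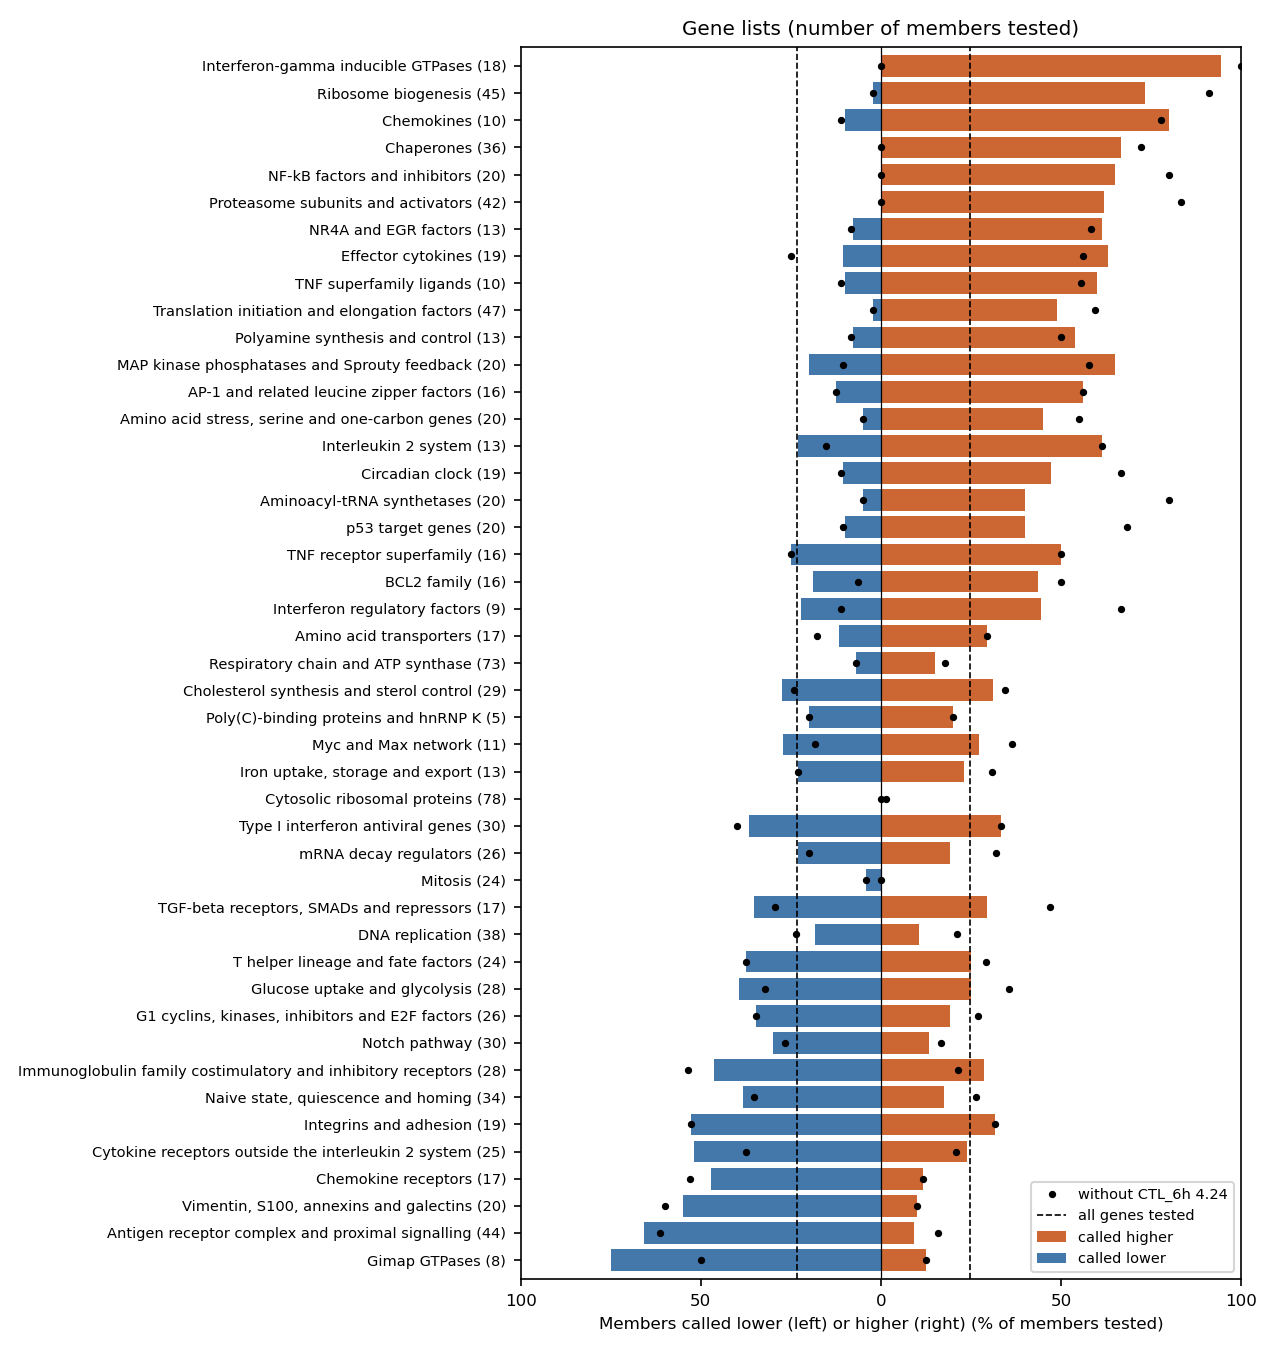
Percent of the tested members of each gene list that were called higher (right of 0) or lower (left) at 6 h, as bars for the fit with all 11 libraries and as dots for those members also tested without CTL_6h 4.24; dashed lines mark the shares over all genes, 24.7% higher and 23.2% lower. The interferon-gamma inducible GTPases, chemokines and ribosome biogenesis genes stand at the top and the antigen receptor machinery and Gimap GTPases at the bottom.

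Protein folding and degradation genes rose without a fall: 24 of 36 chaperones and 26 of 42 proteasome genes rose (35 of 42 without CTL_6h 4.24), and 0 of either list fell by edgeR, at an unadjusted p under 0.05 or by DESeq2. Hsp90aa1, the inducible HSP90, rose from 221 ± 28.6 CPM at 0 h to 533 ± 161 CPM at 6 h and Hspa4l by 1.07 ± 0.12. Hsf2, a heat shock transcription factor that is counted in the chaperone list, rose by 1.06 ± 0.12. Psmd1 rose by 0.91 ± 0.12, Psmd7 by 0.80 ± 0.08 and the interferon-inducible activator Psme2 by 1.03 ± 0.14. Polyamine synthesis was led by Odc1, the rate-limiting enzyme and a Myc target, at 76.6, 85.1 and 109 CPM at 0 h and 1045, 764, 879.6, 1047 and 733 CPM at 6 h (log2 fold change 3.31 ± 0.13, adjusted p = 5.1e-08). Srm, spermidine synthase, rose by 1.68 ± 0.23, and of 13 genes 7 rose and 1 fell. Of 17 amino acid transporters, 5 rose, close to the 24.7% of all genes, and 2 fell; with no filter on low counts the lead turned (4 and 6 of 18). Slc7a5 and Slc3a2, the chains of the large neutral amino acid transporter, rose by 1.58 ± 0.25 and 1.01 ± 0.10; Slc36a1, a lysosomal transporter, fell by 1.18 ± 0.20. Among amino acid stress and one-carbon genes 9 of 20 rose, Got1 by 1.02 ± 0.07 and Shmt1 by 1.97 ± 0.25, and 1 fell: Ddit4, which encodes the mTORC1 inhibitor REDD1, had 140.2, 281 and 377 CPM and 28.4, 18.6, 29.3, 28.2 and 26.1 CPM (log2 fold change -3.37 ± 0.18, adjusted p = 2.33e-07).

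Glycolysis genes were split. Of 28, 7 rose (25.0%, beside 24.7% of all genes) and 11 fell (39.3%, beside 23.2%). Without CTL_6h 4.24 the lead changed to 10 higher and 9 lower. Hk2, the inducible hexokinase, had 3.09, 5.08 and 8.63 CPM and 23.8, 31, 17.9, 47.3 and 36.6 CPM (log2 fold change 2.55 ± 0.29), and the lactate transporter Slc16a1 rose by 1.33 ± 0.19. The glucose transporter gene Slc2a3 fell from 62.4, 69.9 and 75.9 CPM to 23.6, 21.6, 28.2, 22.9 and 26.8 CPM (log2 fold change -1.48 ± 0.09, adjusted p = 7.67e-07), and Pdk1 fell by 1.32 ± 0.11. Cholesterol genes were split as well, 9 higher and 8 lower of 29, a lead that turned in the replicate block (7 and 9) and with no filter (2 and 15 of 30). Their shares in the main fit, 31.0% and 27.6%, lay near those of all genes. Insig1 rose by 0.94 ± 0.17; Dhcr7 fell by 0.88 ± 0.10, Tm7sf2 by 0.84 ± 0.12 and the cholesterol exporter Abca1 by 1.19 ± 0.20. Of 73 respiratory chain and ATP synthase genes, 11 rose (15.1%) and 5 fell (6.85%), both under the shares of all genes. The counts were 4 and 5 in the replicate block, 5 and 10 with edgeR's filterByExpr and 1 and 20 with no filter on low counts. Cycs, cytochrome c, rose by 1.10 ± 0.16. For iron, the uptake receptor Tfrc had 36.6, 45.5 and 55.9 CPM and 126, 94, 84, 334 and 249 CPM (log2 fold change 1.97 ± 0.35). The exporter Slc40a1, known from macrophages, fell from 6.41 ± 2.66 CPM at 0 h to 0.371 ± 0.366 CPM at 6 h. Of 13 iron genes 3 rose and 3 fell, each 23.1%, near the shares of all genes. In the circadian list 9 of 19 rose and 2 fell; Ciart rose by 1.88 ± 0.20, Csnk1e by 0.74 ± 0.09, and Dbp fell by 1.66 ± 0.14 and Nr1d1 by 0.94 ± 0.16. The labels used here give no time of day, and clock time and stimulation cannot be told apart.

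Few mitosis genes were called at 6 h. Of 24 mitosis genes, 0 rose and 1, Mki67, fell, at 80.0 ± 43.4 CPM at 0 h and 33.9 ± 16.6 CPM at 6 h, a call lost without CTL_6h 4.24 (adjusted p = 0.102) and without CTL_0h 5.13, CTL_6h 4.29 or CTL_6h 9.20 (0.0575 to 0.0609). By edgeR 0 members rose at an unadjusted p under 0.05 and 4 fell; DESeq2 called 0 and 2, and the fit with a replicate block 0 and 3. Of 38 DNA replication genes, 4 rose (10.5%, beside 24.7% of all genes) and 7 fell (18.4%, beside 23.2%). The counts were 7 and 5 with total-count scaling, 2 and 6 in the replicate block and 8 and 9 without CTL_6h 4.24. Orc1 rose by 1.44 ± 0.28, and Rfc1 fell by 0.68 ± 0.13 and Rpa1 by 0.62 ± 0.13. In the G1 list 5 of 26 rose (19.2%) and 9 fell (34.6%). Cdkn1a, the cyclin-dependent kinase inhibitor p21, had 0.766, 1.14 and 1.78 CPM at 0 h and 22.1, 29.6, 17.3, 40.5 and 37.2 CPM at 6 h, 25.6-fold higher (log2 fold change 4.68 ± 0.25, adjusted p = 2.34e-07), with no overlap. E2f2 fell by 2.11 ± 0.18, Ccnd3, which encodes cyclin D3, by 1.17 ± 0.11 and Cdk2 by 0.96 ± 0.10. Of 20 p53 target genes, 8 rose (13 of 19 without CTL_6h 4.24) and 2 fell; besides Cdkn1a, Fas rose by 1.00 ± 0.08 and Bax by 0.74 ± 0.10, and Sesn1 fell by 0.82 ± 0.11. In the BCL2 family 7 of 16 rose and 3 fell (8 and 1 without CTL_6h 4.24). Bcl2l1, which encodes the survival protein BCL-XL, rose from 22.1 ± 2.58 CPM at 0 h to 112 ± 52.2 CPM at 6 h (log2 fold change 2.34 ± 0.27), the pro-death Bcl2l11 (BIM) by 1.65 ± 0.12 and Bcl2a1d by 1.75 ± 0.22; the copies of Bcl2a1 are near-identical, so its value is uncertain. Poly(C)-binding proteins, the family of Pcbp2, had 1 call in each direction: Pcbp1 rose by 0.38 ± 0.13, Pcbp4 fell by 0.47 ± 0.12, and the other 3 of 5 were not called. The Pcbp1 call was lost with the replicate block (adjusted p = 0.13) and without any 1 of CTL_0h 4.24, 5.6 or 9.20 or CTL_6h 4.29, 9.20 or 10.28 (0.0523 to 0.0816).

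B cell, myeloid, dendritic cell and natural killer markers were mostly lower at 6 h, beside the changes described above. Of 14 B cell markers 10 fell and 0 rose; their summed level was 523 to 1049 CPM at 0 h and 99.0 to 184 CPM at 6 h, and none was at 0 in any library. Ighm, the IgM heavy chain, had 443, 493 and 570.4 CPM at 0 h and 98.3, 91.3, 104, 71.9 and 76.9 CPM at 6 h (log2 fold change -2.50 ± 0.13). Cd22 fell by 3.08 ± 0.40, and Cd79a, at 52.1 CPM in CTL_0h 5.6 and 9.32 CPM in the lowest 0 h library, was not called (adjusted p = 0.0611) but was in the replicate block (0.0207) and without CTL_0h 5.6 (0.00653), CTL_0h 4.24 (0.044) or CTL_0h 10.28 (0.0343). Of 11 tested monocyte, macrophage and neutrophil markers 8 fell and 0 rose, with summed levels of 66.1 to 172.5 CPM at 0 h and 7.61 to 31.7 CPM at 6 h; Ly6g was at 0 in CTL_0h 5.13 and Marco in CTL_6h 5.13. Lyz2, lysozyme M, had 6.08, 9.69 and 59.3 CPM and 0.898, 1.69, 0.465, 0.172 and 1.47 CPM (log2 fold change -4.18 ± 0.57), the highest value being CTL_0h 5.6, and Csf1r fell by 3.42 ± 0.42. The neighbours C1qb, C1qc and C1qa on chromosome 4 were all called 2-fold lower, as were Itgam, Itgax and Itgad on chromosome 7. Of 9 dendritic cell markers 6 fell and 1 rose; Itgax, which encodes CD11c, had 5.74, 20 and 70.3 CPM and 1.18, 1.07, 0.435, 1.58 and 2.14 CPM (log2 fold change -4.43 ± 0.69). The class II genes H2-Ob, H2-Ab1, H2-Aa, H2-Eb1 and H2-Eb2 form a run of 5 on chromosome 17 (34238903 to 34341412) called 2-fold lower; H2-Aa fell from 106 ± 82.3 CPM at 0 h to 11.9 ± 6.91 CPM at 6 h. Natural killer markers fell in 4 of 7, among them Prf1, perforin, by 2.43 ± 0.21, and summed to 87.0 to 176 CPM at 0 h and 35.1 to 69.8 CPM at 6 h. Both CD8 genes fell, Cd8a from 3.8, 6.8 and 64.2 CPM to 2.27, 3.04, 2.26, 3.28 and 4.73 CPM, and neither was called without CTL_6h 4.24; the Cd8a call was also lost without CTL_0h 9.20, CTL_6h 4.29 or CTL_6h 10.28 (adjusted p = 0.0552 to 0.0822). The part of these cells in the falls of Mmp9 (log2 fold change -4.46 ± 0.47), Plbd1 (-3.86 ± 0.62), Pld4 (-3.75 ± 0.65) and Alox5ap (-3.57 ± 0.63) was not tested.

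Regulatory T cell markers were split: 3 of 8 rose and 4 fell. Foxp3, their defining factor, had 31.9, 44.5 and 63 CPM at 0 h and 65.2, 53.8, 63.4, 39.7 and 44.7 CPM at 6 h and was not called (adjusted p = 0.507), Il2ra, Lrrc32 and Ikzf4 rose as given above, and Izumo1r, which encodes the folate receptor FR4, fell from 202 ± 42.1 CPM at 0 h to 31.1 ± 5.81 CPM at 6 h (log2 fold change -2.72 ± 0.16). Of the plasma cell markers 2 of 4 rose and 1 fell (1 and 1 without CTL_6h 4.24); Xbp1, of the unfolded protein response, rose by 0.69 ± 0.09. Of 6 tested markers of stroma and endothelium, 3 rose and 1 fell (1 and 0 of 4 without CTL_6h 4.24), with summed levels of 231.9 to 266.2 CPM at 0 h and 212.8 to 249.8 CPM at 6 h. Pecam1, which encodes the adhesion molecule CD31, also found on leukocytes, fell from 251 ± 13.5 CPM at 0 h to 216 ± 23 CPM at 6 h. The Pecam1 call was lost with total-count scaling (adjusted p = 0.21) and in the replicate block (0.093). It was also lost without any 1 library other than CTL_0h 5.6 or CTL_6h 5.13 (0.0573 to 0.24, the last without CTL_6h 4.24). The collagen genes Col1a2, Col3a1 and Col1a1 rose with CTL_6h 4.24, at 6 h means of 3.41 CPM, 2.84 CPM and 3.53 CPM, and Col1a2 and Col3a1 did not reach the filter without it, while Col1a1 went from a log2 fold change of 1.90 ± 0.49 to 1.16. Of the red cell and platelet markers 2 of 9 were tested and 1, Itga2b, rose by 0.94 ± 0.23; between 0 and 4 of the 9 were at 0 in a library.

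**Figure D5:**
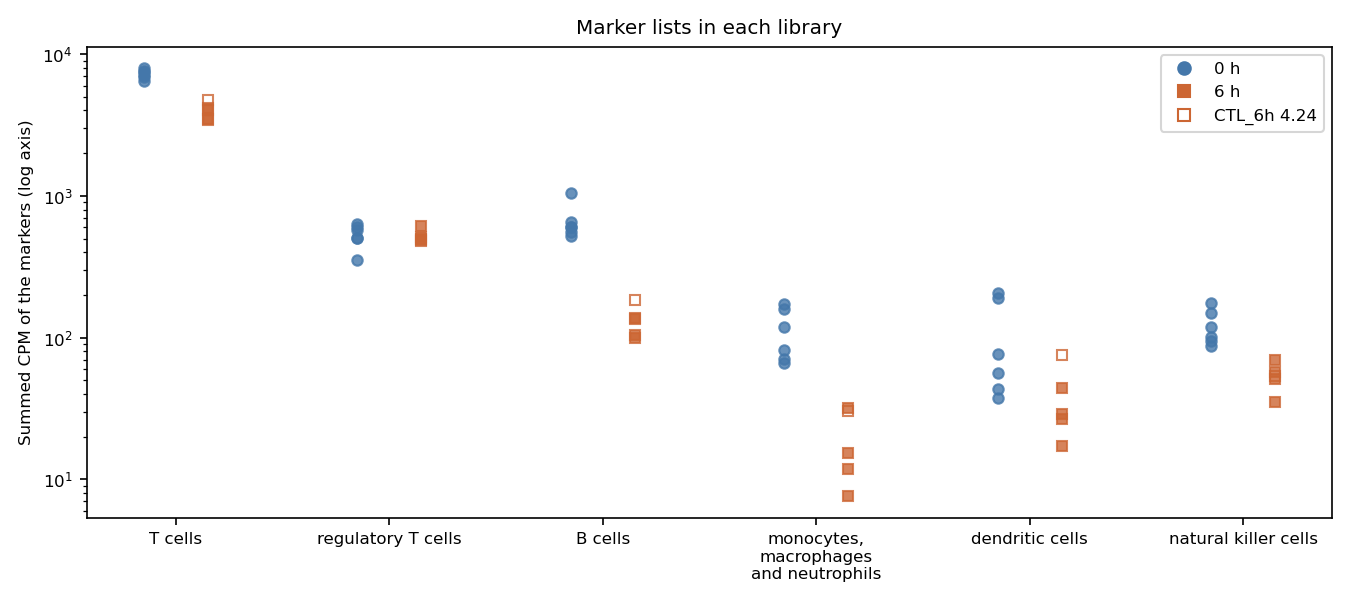
Summed CPM (log axis) of the marker lists of 6 cell types in each library at 0 h (circles) and 6 h (squares, CTL_6h 4.24 open). B cell, myeloid and natural killer sums lie lower in all 5 stimulated libraries than in any unstimulated one, the T cell sum does so too, the dendritic and regulatory T cell sums overlap.

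Males and females were compared in their response, with 3 numbers labelled male at both times and 2 female at 6 h. The test of the difference between the sexes' log2 fold changes (edgeR, sex by time) called 0 of 15449 genes, the smallest adjusted p being 0.768, and 309 genes had an unadjusted p under 0.05. DESeq2 was not run for it. CTL_6h 4.24 is among the 2 female libraries at 6 h. With so few libraries, 0 calls do not show that the sexes responded alike.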

How the data were processed

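RNA of sorted mouse T effector cells was sequenced as stranded mRNA libraries, per the labels' protocols. The deposited table holds whole-number read counts per gene; for their making the submitters' processing notes list Subread 1.5.2, featureCounts, STAR 2.5.2b and Trimmomatic 0.36, with GRCm38 as the build. Neither the annotation release nor the strand setting is stated in the labels. The 49315 Ensembl IDs were matched to GENCODE M21 (49056 matched). Genes with a mean of at least 1 CPM over the 11 libraries were tested with edgeR 4.0.16 (R 4.3.3, quasi-likelihood test, robust, TMM factors, terms for sex label and time), with Benjamini-Hochberg adjustment over 15449 genes. The SE is the fold change divided by the root of F. Tests were tried on simulated data: 56 of 100 genes changed 2-fold and 23 of 100 changed 1.5-fold were called, with 5 unchanged ones.

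Named genes were the 12 largest changes each way with a mean log2 CPM from 2 upward (sex-linked genes, predicted models and receptor segments aside), up to 4 called members of each list by adjusted p with up to 2 of the rarer direction, the 10 with most counts called at 2-fold each way, genes on at one time only, Pcbp2, and the genes whose promoter is shown; Il3, Il4, Foxp3, Cd79a and H2-Aa and neighbours in runs were added after their values were seen. A few genes that the rule picks are not reported here. Members and lists were chosen with earlier results of these data known. Same-numbered libraries deviated together from their group means (correlations 0.402 to 0.63 over 5 numbers). Libraries of unlike numbers gave -0.592 to 0.451, which overlaps that range, but all 5 at 6 h correlated best with their own number. The numbers were therefore taken to pair the libraries. The main fit holds no term for the number, so its p-values ignore this pairing, and the replicate block is an alternative. No 2 libraries of a group agreed within sampling noise (chi-square per degree of freedom 28.6 to 302.7 over 25 pairs). Alternatives were other scalings, filters, DESeq2 1.42.0, a replicate block, 1 sex, all 20 libraries, a test against 1.5-fold and leaving out each library.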

Additional observations from a re-analysis of the deposited data

Results flagged for a closer look

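In 110 groups of 4 to 10 values checked (libraries' quality measures, marker sums and the 41 genes given library by library), 15 had 1 library far from the others by Dixon's criterion, which chance alone meets in about 1 of 20 groups. CTL_6h 4.24 stood apart in total counts (26.43 M, next 62.4), in the share of counts in genes below the filter (3.433%, next 0.6238%), in mitochondrial counts (2.017%, next 1.268%), in its median correlation with its group (0.8539, next 0.9794), and in Foxp2 (34.38 CPM) and Ptprd (43.02 CPM). CTL_0h 4.24 stood apart in the same direction at 0 h, in its median correlation (0.965, next 0.9771), Foxp2 (1.134 CPM) and Ptprd (1.438 CPM). CTL_0h 5.6 was highest in the summed CD8 markers (113.4 CPM, next 36.45), the summed B cell markers (1049 CPM, next 656.1), Cd8a (64.21 CPM) and Lyz2 (59.34 CPM). Myc in CTL_0h 10.28 (87.88 CPM) and the summed regulatory T cell markers in CTL_6h 9.20 (611 CPM, next 513.1) were single high values.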

How the results depend on the processing

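The 7396 called genes were 20749 (14081 higher, 6668 lower; 13679 and 2708 at 2-fold) with no filter beyond 1 count, where 45908 genes were tested, and 12644 (7262 and 5382; 6358 and 1912) with filterByExpr. A test against 1.5-fold called 3178 (2016 and 1162). Libraries labelled male gave 4782 (2284 higher, 907 of them at 2-fold). Those labelled female gave 843 (262 higher and 581 lower, 251 and 542 at 2-fold). Each of these fits had fewer libraries, and CTL_6h 4.24 is among those labelled female. Leaving out each library in turn gave 6321 to 7538 called, 3259 to 4017 higher, 3015 to 3592 lower, 914 to 2592 higher and 984 to 1196 lower at 2-fold; the lowest 2-fold counts were without CTL_6h 4.24. Of the alternatives chosen after seeing the data, leaving out both libraries numbered 4.24 gave 929 rises of 2-fold; a mean of at least 10 CPM gave 4369 (2335 and 2034; 415 and 442), and without CTL_6h 4.24 as well 2517 higher (369 and 445 at 2-fold). With a replicate block on the 5 numbers at both times 6899 were called (3480 and 3419); among the genes named, pairing changed the calls of Cd247, Pcbp1, Pecam1 and Cd79a. Log2 fold changes that turned were those of Cd247 (-0.03), Foxp3 (-0.20), Pcbp2 (-0.28) and Rplp0 (-0.19) with no filter, Foxp3 (-0.00) and Pcbp2 (-0.09) with filterByExpr, and Foxp3 (-0.07) and Pcbp2 (-0.03) in females; the cause was not tested. Of 252 genes named, 140 kept direction and side of the threshold in each of the 25 alternatives that gave a value, and 212 in all but the fit of females. CTL_6h 4.24 had the fewest counts (26.4 M) and a count in 41192 genes, the most of the 6 h libraries. CTL_0h 4.24 had 73.4 M counts and a count in 41455 genes, the most at 0 h. The part of depth in these values was not tested.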
